A study of Canis lupus familiaris with 12 samples.

Results

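Expression of 6 genes of cholesterol synthesis and of its control by the SREBP transcription factors was followed in canine mast cell tumour cells over 72 h of treatment with masitinib, a tyrosine kinase inhibitor that acts on the stem cell factor receptor KIT. The genes were HMGCS1, FDPS, FDFT1, SQLE, LSS and INSIG1. They were chosen by name, as the array probe sets that carry the symbol of 1 of 7 genes in the annotation of the array, and 6 of the 7 were found (the seventh, IDI1, was not analysed here). The choice was made with earlier results of these data known, so the contrast with all genes is a description. These 6 genes had 12 probe sets, among 15115 genes and 42924 probe sets tested. Each gene is described by its brightest probe set, that with the highest mean of the 12 arrays, and the other probe sets are given beside it.

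The cells were C2, a single cell line derived from a canine mast cell tumour, in which a tandem duplication in the juxtamembrane domain of KIT keeps the receptor active without its ligand. Total RNA of whole cultures was hybridised to Affymetrix canine expression arrays after 0, 12, 24 and 72 h, with 3 arrays at each time. The cultures at 12, 24 and 72 h were exposed to 100 nM masitinib, and those at 0 h were the control without it. Cultures kept for as long without masitinib were not analysed here; the effect of masitinib and that of hours in culture therefore cannot be told apart. As all cultures came from 1 line the p-values measure only the spread between these cultures.

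Cholesterol is built from acetyl-CoA. HMGCS1 makes HMG-CoA, the precursor of mevalonate; the enzymes that follow turn mevalonate into isoprene units, and FDPS joins these to farnesyl diphosphate, the branch point to sterols, ubiquinone, dolichol and prenylated proteins. FDFT1 (squalene synthase) commits farnesyl diphosphate to sterols, SQLE (squalene epoxidase) oxidises squalene, and LSS closes the ring system to give lanosterol, from which cholesterol is made. Transcription of these enzymes is driven mainly by SREBP-2. When sterols are abundant, INSIG1 holds SREBP and its escort SCAP in the endoplasmic reticulum, and when they are scarce SREBP is released and cut, and it then switches on the synthesis enzymes and INSIG1 itself. Proliferating cells need this pathway for new membrane. The roles named for these and the other genes are known mainly from human and mouse cells.

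All 6 genes were lower at 12, 24 and 72 h than at 0 h, and 5 of them fell past the thresholds by 24 h. A gene was counted as changed when its Benjamini-Hochberg adjusted p over all probe sets was under 0.001 in limma and its change was over 1.5-fold. At 12 h FDFT1, SQLE and INSIG1 fell, 3 of 6 genes, where 6.30% of all genes tested fell. At 24 h HMGCS1, FDPS, FDFT1, SQLE and INSIG1 fell, 5 of 6, against 10.0% of all genes, and at 72 h the same 5 fell, against 11.0% of all genes. None of the 6 rose, where 4.26% of all genes rose at 12 h, 8.01% at 24 h and 8.73% at 72 h. The median log2 change of the 6 genes at 12, 24 and 72 h was -0.68, -0.91 and -1.12, while the median over all genes was 0.01, 0.03 and 0.02 at these times. In each of the 6 genes, all 3 treated arrays lay below all 3 arrays of 0 h at every time, an arrangement found in 22.9%, 24.8% and 26.4% of all genes at 12, 24 and 72 h. In RNA of whole cultures, fewer cells of one kind and less RNA per cell cannot be told apart.

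**Figure D1:**
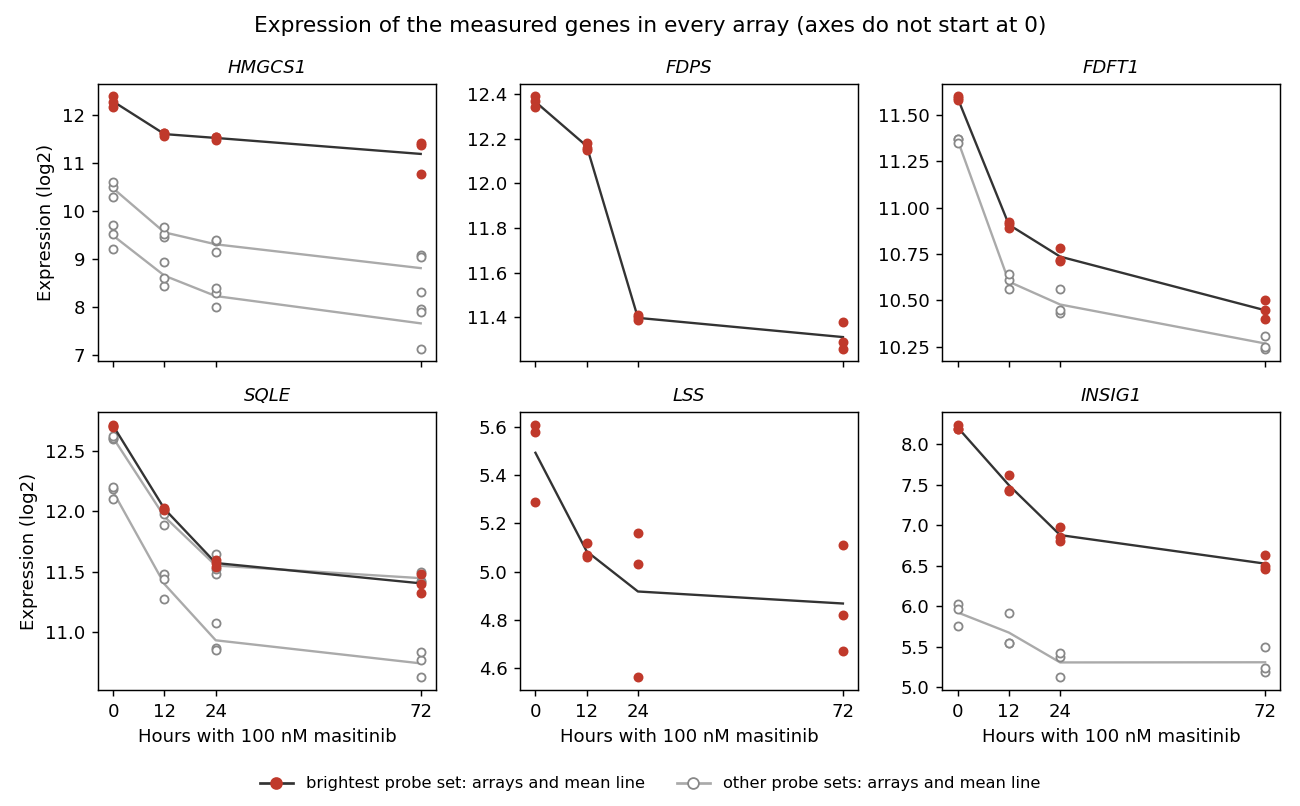
Log2 array value (vertical axis) of the probe sets of the 6 genes at 0, 12, 24 and 72 h (horizontal axis). Each filled point is 1 array and the dark line joins the means of 3 arrays; open points and grey lines are the other probe sets, and the axes do not start at 0. In every gene the treated arrays of the brightest probe set lie below those of 0 h, and in HMGCS1 one array of 72 h, at 10.78, lies below the other arrays of that time.

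HMGCS1, the first enzyme of the group in the pathway, read 12.40, 12.29 and 12.18 on the log2 scale at 0 h, 11.57, 11.63 and 11.63 at 12 h, 11.49, 11.55 and 11.55 at 24 h, and 11.39, 11.42 and 10.78 at 72 h. The treated arrays did not overlap with those of 0 h, and replicate 3 of 72 h stood well below its companions. HMGCS1 was 1.69-fold lower at 24 h (log2 change -0.76 ± 0.14, SE, limma adjusted p = 0.000535) and 2.13-fold lower at 72 h (-1.09 ± 0.14, adjusted p = 2.12e-05). At 12 h the difference of -0.68 ± 0.14 was over 1.5-fold, but its adjusted p of 0.00182 in limma missed the threshold.

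The 2 other probe sets of HMGCS1 had larger differences, with log2 changes of -0.92, -1.17 and -1.66 in one and -0.84, -1.26 and -1.83 in the other at 12, 24 and 72 h. Both passed at 24 and 72 h and neither at 12 h, as the brightest did. All 3 probe sets were low in the same array: replicate 3 of 72 h lay 0.63, 0.74 and 0.79 log2 units below the mean of the other 72 h arrays. In that array 2.83% of all probe sets were more than 0.5 log2 units below their companions, against 0.0978% to 1.27% in the other 11 arrays. Without it the 12 h difference passed (adjusted p = 8.64e-06 in limma), so that 4, 5 and 5 of the 6 genes fell at 12, 24 and 72 h, and the change of HMGCS1 at 72 h was -0.88. The 24 h call of HMGCS1 was lost when any 1 of the 9 arrays of 0, 12 or 24 h was left out, with adjusted p between 0.00103 and 0.00313.

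FDPS, the prenyl transferase, was little lower at 12 h and much lower from 24 h on. It read 12.34, 12.39 and 12.37 at 0 h, 12.15, 12.18 and 12.16 at 12 h, 11.41, 11.40 and 11.39 at 24 h, and 11.29, 11.26 and 11.38 at 72 h. The arrays of 12 h were all below those of 0 h, yet by so little that the difference (log2 change -0.20 ± 0.05, adjusted p = 0.0146 in limma) missed both thresholds. At 24 h FDPS was 1.95-fold lower than at 0 h (-0.97 ± 0.05, adjusted p = 1.51e-08), and at 72 h 2.07-fold lower (-1.05 ± 0.05, adjusted p = 5.98e-09). FDPS has a single probe set, of a type that the manufacturer marks as shared between transcripts.

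FDFT1, which makes squalene, was lower at every time than at the time before. Its arrays read 11.59, 11.60 and 11.58 at 0 h, 10.89, 10.91 and 10.92 at 12 h, 10.71, 10.72 and 10.78 at 24 h, and 10.40, 10.50 and 10.45 at 72 h. FDFT1 fell at all 3 times, by 1.61-fold at 12 h (log2 change -0.68 ± 0.05, adjusted p = 7.6e-07 in limma), 1.81-fold at 24 h (-0.85) and 2.21-fold at 72 h (-1.14, adjusted p = 2.39e-09). Its other probe set gave -0.76, -0.89 and -1.10, and passed at all 3 times.

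SQLE, the epoxidase, fell at all 3 times. It read 12.71, 12.72 and 12.70 at 0 h, 12.03, 12.01 and 12.02 at 12 h, 11.60, 11.54 and 11.57 at 24 h, and 11.40, 11.32 and 11.48 at 72 h. SQLE was 1.61-fold lower at 12 h (log2 change -0.69 ± 0.06, adjusted p = 1.16e-06 in limma), 2.21-fold lower at 24 h (-1.14) and 2.48-fold lower at 72 h (-1.31, adjusted p = 1.21e-09). The 2 other probe sets also passed at all 3 times, with changes of -1.17 and -1.43 at 72 h.

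LSS was dim and did not pass at any time. Its arrays read 5.29, 5.58 and 5.61 at 0 h, 5.12, 5.07 and 5.06 at 12 h, 5.16, 5.03 and 4.56 at 24 h, and 4.82, 5.11 and 4.67 at 72 h. All treated arrays lay below the 0 h arrays, and the spread within a time was wide, with an SD of 0.320 at 24 h, against 0.0133 to 0.0882 for the other 5 genes at that time.
The log2 differences from 0 h were -0.41, -0.58 and -0.63 ± 0.15 at 12, 24 and 72 h, with adjusted p of 0.0617, 0.00796 and 0.00441 in limma. Without replicate 3 of 24 h, which was the lowest of all 12 arrays, the 72 h difference passed (adjusted p = 0.000798). LSS, too, has 1 probe set only, of the shared type.

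INSIG1, the regulator of the group, had the largest change of the 6 genes by their brightest probe sets, although at 12 h it differed from SQLE, FDFT1 and HMGCS1 by less than the standard errors. It read 8.19, 8.19 and 8.24 at 0 h, 7.42, 7.44 and 7.62 at 12 h, 6.98, 6.81 and 6.85 at 24 h, and 6.63, 6.49 and 6.46 at 72 h. INSIG1 was 1.64-fold lower at 12 h (log2 change -0.71 ± 0.07, adjusted p = 9.62e-06 in limma), 2.52-fold lower at 24 h (-1.33, adjusted p = 1.49e-08) and 3.21-fold lower at 72 h (-1.68, adjusted p = 1.51e-09). At 72 h only 1.32% of all probe sets had a lower change than INSIG1, and 2.38% a lower change than SQLE. The second, dimmer probe set of INSIG1 lay below 0 as well, at -0.25, -0.62 and -0.62 ± 0.12, but passed at no time (adjusted p = 0.174, 0.00127 and 0.00122). With the mean of both probe sets, the 12 h change of INSIG1 was -0.48 (adjusted p = 0.000202), which is under 1.5-fold, so that 2 of the 6 genes fell at 12 h; its 24 and 72 h changes still passed.

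Counted by probe set, all 12 were lower than 0 h at 12, 24 and 72 h. Of these, 6 fell at 12 h, where 5.05% of all probe sets fell and 3.83% rose; 10 fell at 24 h, against 8.66% of all that fell and 6.96% that rose; and 10 fell at 72 h, against 9.39% that fell and 8.28% that rose. The probe sets of 1 gene measure the same transcripts and are not independent.

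**Figure D2:**
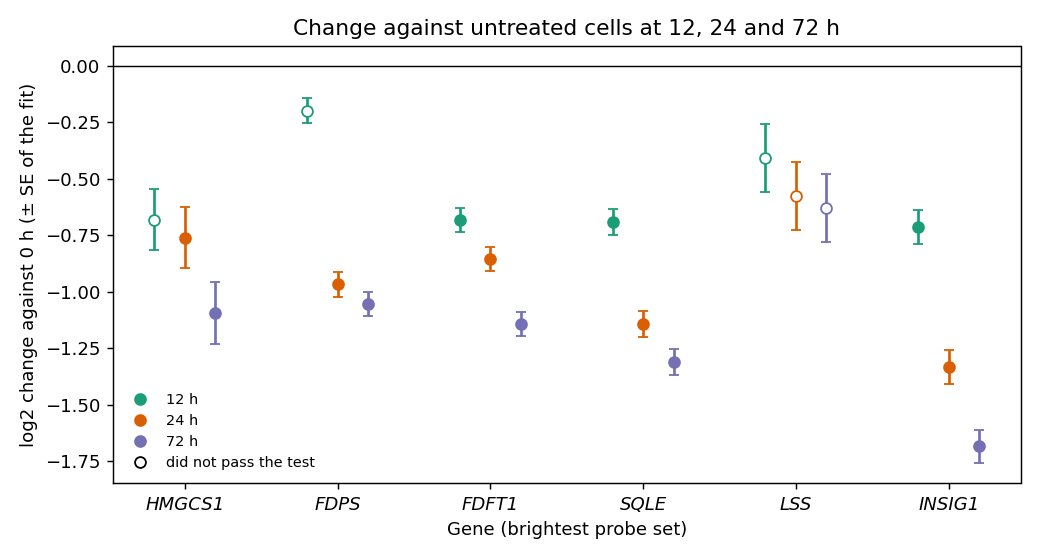
Log2 change from 0 h (vertical axis) of the brightest probe set of each of the 6 genes (horizontal axis) at 12, 24 and 72 h (colours), with the standard error of limma as bars; filled points passed the thresholds and open points did not. All points lie below 0, from -0.20 for FDPS at 12 h to -1.68 for INSIG1 at 72 h.

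The levels of all 6 genes had the same order, highest at 0 h, then 12 h, 24 h and 72 h, and the size of the steps between neighbouring times was read as a share of the 72 h change. The first 12 h brought FDPS to 18.8% of its 72 h change on the log2 scale, with 17.8% to 19.9% as the range when 1 array at a time was left out. The same share was 42.4% (40.2% to 46.3%) for INSIG1, 52.7% (51.1% to 54.4%) for SQLE, 59.7% (58.5% to 61.1%) for FDFT1 and 62.2% (56.3% to 76.9%) for HMGCS1. For LSS, which did not pass, it was 65.4% (54.9% to 77.4%). By 24 h FDPS had reached 91.8% (88.8% to 94.1%) and SQLE 87.1% (84.4% to 89.9%) of their 72 h change. The share was 79.0% (76.7% to 82%) for INSIG1, 74.8% (73.2% to 76.7%) for FDFT1 and 69.5% (62.9% to 85.9%) for HMGCS1. The range of HMGCS1 covered those of FDFT1 and INSIG1. For LSS the 24 h share was 92.2% (63.3% to 112%).

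Tested directly, 2 of the 6 genes fell between 12 and 24 h, FDPS and INSIG1, where 3.10% of all genes fell and 1.41% rose. FDPS was 1.70-fold lower at 24 h than at 12 h (log2 difference -0.77 ± 0.05, limma adjusted p = 6.95e-07), and INSIG1 was 1.53-fold lower (-0.62 ± 0.07, adjusted p = 8.06e-05). The INSIG1 difference came under 1.5-fold without replicate 3 of 12 h (-0.55) or without replicate 2 of 24 h (-0.58). The other probe set of INSIG1 differed by -0.37 (limma adjusted p = 0.0596) and did not pass. SQLE differed by -0.45 (adjusted p = 0.000112), which is under 1.5-fold, FDFT1 by -0.17 (adjusted p = 0.0435), and HMGCS1 by -0.08 (adjusted p = 0.779), within its spread. Between 24 and 72 h none of the 6 passed, where 1.81% of all genes fell and 1.96% rose; 4 of them had an unadjusted p under 0.05 in limma and none passed with Storey q-values. INSIG1 at -0.35 (adjusted p = 0.00486), HMGCS1 at -0.33 (0.121) and FDFT1 at -0.29 (0.00198) had the largest differences and FDPS at -0.09 (0.35) the smallest of the genes that had fallen by then.
Of the 12 probe sets, 2 fell between 12 and 24 h, against 2.43% of all probe sets that fell and 1.27% that rose, and none passed between 24 and 72 h, against 1.58% that fell and 2.09% that rose.

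Over the 12 arrays the 15 pairs among the 6 genes had Pearson correlations of 0.716, between FDPS and LSS, to 0.985, between SQLE and INSIG1. These values describe 12 arrays that share the sequence of 4 times, so genes with any steady course correlate. With the mean of each time removed, the correlations ran from -0.886, between HMGCS1 and FDPS, to 0.833, between FDPS and SQLE. Replicate 3 of 72 h was the lowest 72 h array in HMGCS1, LSS and INSIG1, and the highest in FDPS and SQLE.

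The other enzymes of the route fell in part. For this list and those that follow, the shares over all genes are the measure. They were 6.30%, 10.0% and 11.0% that fell at 12, 24 and 72 h, and 4.26%, 8.01% and 8.73% that rose. Of 4 other mevalonate pathway enzymes measured (of 5 listed), 1, 2 and 2 fell at 12, 24 and 72 h, and 1 rose at 72 h, with a median log2 change of -0.22, -0.31 and -0.57. MVD, which makes isopentenyl diphosphate, read 8.24, 8.13 and 8.42 at 72 h, against 9.87, 9.90 and 9.96 at 0 h. All arrays of 72 h lay below those of 0 h, as in 26.4% of all genes. Its log2 changes at 12, 24 and 72 h were -1.004, -1.47 and -1.65 (each ± 0.08), all past the thresholds. ACAT2, which condenses acetyl-CoA at the entry of the pathway, fell at 24 h (-0.65 ± 0.06) and 72 h (-1.14), and lay at -0.36 at 12 h. PMVK, which phosphorylates phosphomevalonate just before MVD, ran the other way and rose at 72 h (0.72 ± 0.06), a call that was lost when the arrays were scaled to the spiked-in poly-A control RNAs; its differences of 0.28 at 12 h and 0.17 at 24 h did not pass, and their sign turned under that scaling. The 72 h call was also lost with the mean of the 3 PMVK probe sets (0.54), of which 1 differed by 0.08.

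Of 9 enzymes from lanosterol to cholesterol measured (of 10 listed), 3, 4 and 5 fell at 12, 24 and 72 h. None rose by its brightest probe set, and the median was -0.17, -0.57 and -0.95. TM7SF2 and LBR, named after their values were seen, passed only in other probe sets. That of TM7SF2 rose at 72 h (0.645), as did the mean of both (0.592). That of LBR fell at 24 h (-0.63) and 72 h (-0.90), and the mean of both at 72 h (-0.74). CYP51A1, which demethylates lanosterol, fell at all 3 times, with log2 changes of -1.02, -1.16 and -1.26 (each ± 0.06). SC5D, the desaturase of a late step, also fell at all 3, by 0.63, 1.02 and 0.97 on the log2 scale (each ± 0.08). HSD17B7 fell at 24 h (-0.75 ± 0.13) and 72 h (-1.32), and NSDHL at 72 h (-1.0 ± 0.09); both act in the removal of methyl groups from the ring. The third gene of the 12 h count was MSMO1, an oxidase of the same steps, which is named because it completes the count; it changed by -0.75, -0.88 and -0.95 (each ± 0.06).

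**Figure D3:**
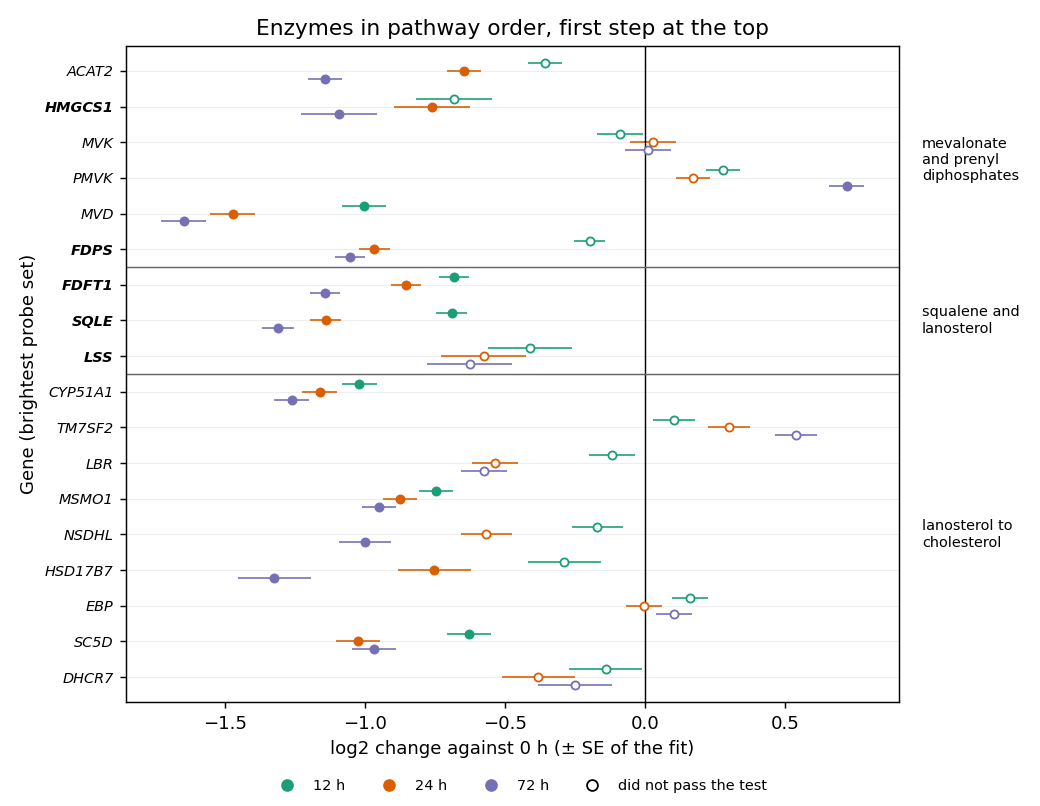
Log2 change from 0 h (horizontal axis) at 12, 24 and 72 h of the 6 genes and of the other measured enzymes, listed down the page in the order of the route to cholesterol; filled points passed the thresholds of adjusted p under 0.001 and 1.5-fold, and bars are standard errors. CYP51A1, SC5D and MSMO1 lie with FDFT1 and SQLE below 0, with filled points at all 3 times.

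Of 8 genes of SREBP processing and its control measured beside INSIG1 (of 9 listed), none passed at 12 h in limma (3 had an unadjusted p under 0.05), 1 rose at 24 h and 1 fell at 72 h, and their median was 0.04, 0.14 and 0.20. SREBF2, which encodes SREBP-2, differed by 0.35, 0.50 and 0.39 (each ± 0.07) at 12, 24 and 72 h in its brightest probe set. All were under 1.5-fold, and under poly-A scaling they came to less than 0 at 24 h (-0.11) and 72 h (-0.08). With the mean of all its probe sets SREBF2 differed by only 0.05, 0.14 and 0.12. SREBF1, the gene of SREBP-1, differed by 0.02, 0.13 and -0.04 (each ± 0.10), and its sign at 12 and 24 h turned under poly-A scaling. The sign at these times also turned with the mean of all SREBF1 probe sets (-0.11 and -0.14). SCAP, the escort of SREBP, rose at 24 h (0.65 ± 0.07), a call that was lost under poly-A scaling and with the mean of both SCAP probe sets (0.30), as the other probe set lay at -0.05. The brightest lay at 0.45 at 12 h and 0.56 at 72 h. MBTPS2, the site-2 protease that releases SREBP from the membrane, fell at 72 h (-1.01 ± 0.08). INSIG2, the relative of INSIG1, differed by 0.12, 0.03 and 0.14 (each ± 0.08), and its sign turned under poly-A scaling.

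Of 5 efflux and LXR genes measured (of 6 listed), 1 rose at 12 h and 2 at 24 and 72 h, and none fell, with a median of 0.14, 0.30 and 0.30. NR1H3, the sterol-sensing nuclear receptor LXRα, rose at all 3 times, with log2 changes of 1.20, 1.77 and 1.62 (each ± 0.06). NR1H2 (LXRβ) rose at 24 h (0.82 ± 0.07) and 72 h (0.72); both calls were lost under poly-A scaling, and that at 72 h also with the mean of its probe sets (0.54). The LXR target genes ABCA1 and ABCG1, which carry cholesterol out of the cell, are on the same list, are named after their values were seen, and did not pass at any time in any probe set. ABCA1 differed from 0 h by 0.14, 0.27 (adjusted p = 0.0486) and -0.03 at 12, 24 and 72 h. ABCG1 differed by 0.04, 0.06 and 0.03 in its brightest probe set and by 0.67 (adjusted p = 0.00151), 0.63 (0.00163) and 0.27 in the other. All 12 and 24 h values of the brightest probe sets of ABCA1 and ABCG1 came under 0 with poly-A scaling. MYLIP, a ubiquitin ligase that lowers lipoprotein uptake and is another known LXR target, rose by 1.52 at 12 h, 2.03 at 24 h and 2.27 at 72 h (each ± 0.06).

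MYLIP stood among 6 genes of uptake and intracellular transport (of 8 listed), of which 1 rose and 1 fell at 12 h, 1 rose and 2 fell at 24 h, and 2 rose and 1 fell at 72 h, with a median of -0.03, 0.32 and 0.44. SCARB1, a receptor for high-density lipoprotein, rose at 72 h (0.91 ± 0.10), a call that was lost under poly-A scaling. STARD4, which carries sterol between membranes, fell at 12 h (-0.87 ± 0.07) and 24 h (-0.81) and lay at -0.47 at 72 h; 2 of its other 3 probe sets passed at 72 h (-1.01 and -0.77), and so did the mean of all 4 (-0.68, adjusted p = 1.67e-06 in limma). SOAT1, which esterifies cholesterol for storage, fell at 24 h (-0.68 ± 0.09) and 72 h (-0.72).

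Of 8 genes of fatty acid synthesis, the other branch of SREBP targets, 2, 4 and 4 fell at 12, 24 and 72 h, and 1 rose at each time, with a median of -0.36, -0.74 and -0.72. FASN, the fatty acid synthase, fell by 1.01, 1.10 and 1.06 on the log2 scale at 12, 24 and 72 h (each ± 0.06). With the mean of all FASN probe sets the changes were smaller (-0.66, -0.66 and -0.61) and still passed. FADS2, a desaturase of polyunsaturated fatty acids, fell at all 3 times, with its lowest value at 24 h (-1.26 ± 0.09), and the elongase ELOVL6 fell at 24 h (-1.36 ± 0.21) and 72 h (-1.18). At 12 h ELOVL6 lay at -0.85, and it passed without replicate 3 of 72 h. The fourth gene to fall at these times was ACLY, which makes cytosolic acetyl-CoA from citrate and is named to complete the count (-0.87 and -1.06, each ± 0.05). ACSS2, which makes acetyl-CoA from acetate, was the gene that rose (0.60, 1.04 and 1.19, each ± 0.09), and its calls at 12 and 24 h were lost under poly-A scaling, that at 12 h also with median centring (0.57) and with the mean of its probe sets (0.56).

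Of 8 genes of the isoprenoid branch after farnesyl diphosphate, 2, 1 and 2 fell at 12, 24 and 72 h, and none rose. The count at 24 h is near the share of all genes that fell, 10.0%. The median of the 8 genes was -0.15, -0.18 and -0.28. PDSS1, a subunit of the enzyme that makes the side chain of ubiquinone, fell at all 3 times (-1.21, -1.34 and -1.12, each ± 0.07). PGGT1B, a subunit of an enzyme that prenylates proteins, fell at 12 h (-0.70 ± 0.12) and 72 h (-0.66) and lay at -0.54 at 24 h. Its 72 h call was lost without replicate 3 of 72 h. Over all 48 other genes of these 7 lists, 9 fell and 3 rose at 12 h, against 6.30% and 4.26% of all genes. At 24 h 13 fell and 5 rose, against 10.0% and 8.01%. At 72 h 15 fell and 6 rose, against 11.0% and 8.73%. The median log2 change of the 48 genes was -0.08, 0.00 and -0.09.

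**Figure D4:**
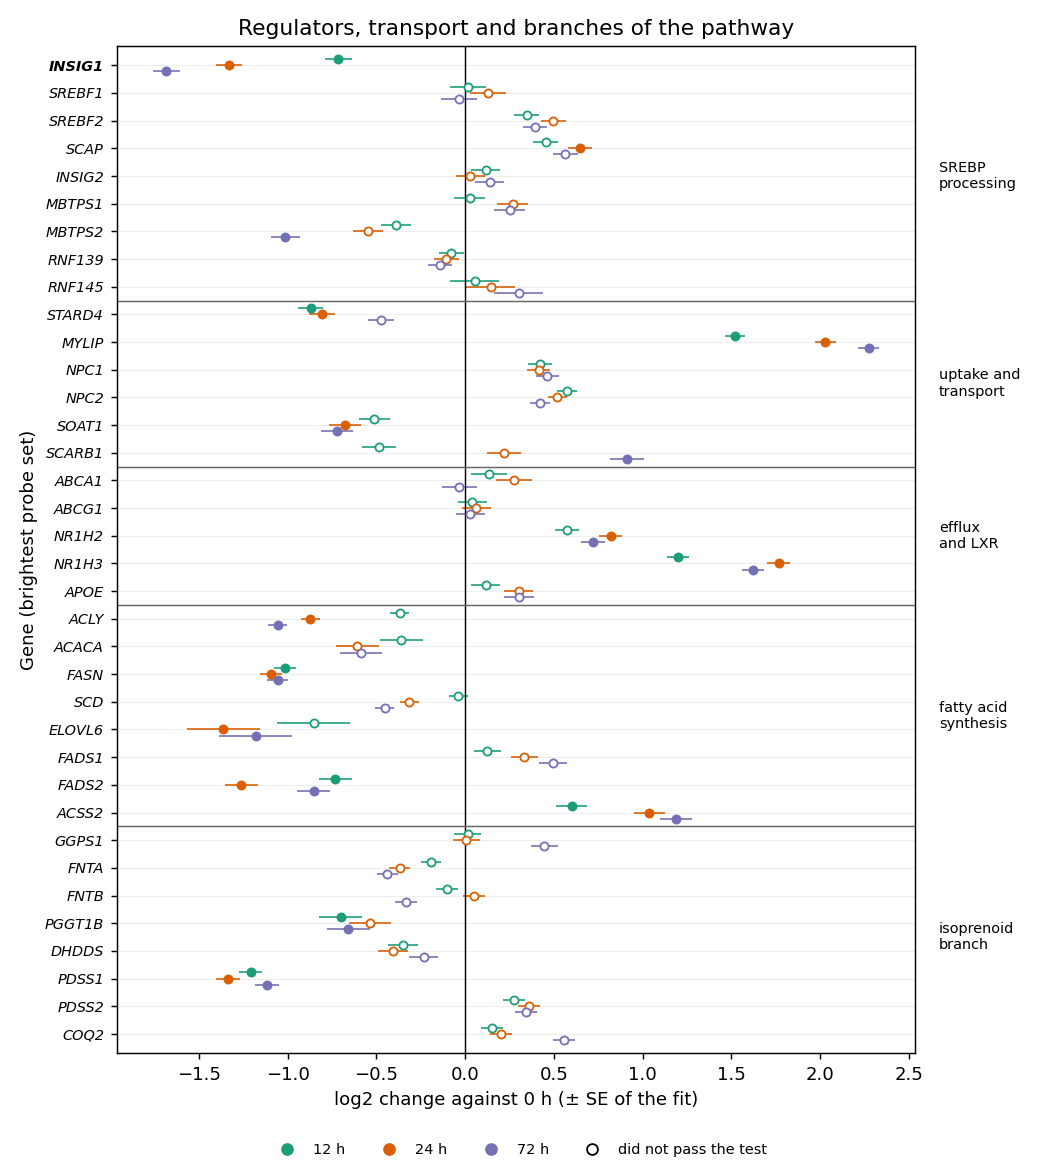
Log2 change from 0 h (horizontal axis) at 12, 24 and 72 h of genes of SREBP control, sterol uptake and transport, LXR and efflux, fatty acid synthesis and the isoprenoid branch; filled points passed the thresholds and bars are standard errors. MYLIP and NR1H3 reach furthest above 0, and INSIG1, drawn in bold type, furthest below.

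Genes outside the group were ranked by the likeness of their profile over the 12 arrays, among 2923 genes whose values spanned over 1 log2 unit. The mean standardised profile of the 6 genes was most like that of GINS2 (Pearson r = 0.989), followed by DDIAS, FANCM, DDX46 and AACS (r = 0.988). GINS2, a subunit of the replicative helicase complex, changed by -1.61, -2.54 and -2.83, and AACS, the acetoacetyl-CoA synthetase, by -1.15, -1.77 and -2.04 at 12, 24 and 72 h. The profile of FDPS, with its late drop, was most like those of CENPH (r = 0.998; -0.57, -3.08 and -3.40), a protein of the centromere, and PLK4 (r = 0.998; -0.69, -3.64 and -3.93), the kinase of centriole duplication. The genes most like the others were UBQLN1 for HMGCS1 (r = 0.98), DNM1L for FDFT1 (0.989), FKBP5 for SQLE (0.996), LRRC58 for INSIG1 (0.995) and LIPG for LSS (0.895). These correlations are descriptions over 12 arrays of 4 times, chosen as the highest of many.

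Within a time, the arrays had correlations of 0.995 to 0.998 with each other. All 9 mast cell markers lay above the median of all probe sets, with a mean log2 level per array of 11.6 to 11.7 at 0 h, 12.1 at 12 h, 12.35 to 12.46 at 24 h and 12.29 to 12.53 at 72 h; none of them passed at 12 h in limma (8 had an unadjusted p under 0.05), 5 rose at 24 h (FCER1A, FCER1G, HDC, GATA2 and SRGN) and 3 at 72 h (FCER1A, GATA2 and SRGN). None of the 5 fibroblast and 4 hepatocyte markers lay above that median or passed at any time, and of the macrophage markers 1 of 4 lay above it and none passed. The 3 epithelial markers measured (of 4 listed) had mean levels of 6.66 to 6.75 at 0 h, 7.17 to 7.42 at 12 h, 6.92 at 24 h and 5.95 to 6.05 at 72 h; EPCAM and KRT18 rose at 12 h and fell at 72 h, when CDH1 rose. The 4 lymphocyte markers (of 5 listed) had mean levels of 5.90 to 5.92, 5.93 to 6.00, 5.80 to 6.00 and 5.60 to 5.75 at 0, 12, 24 and 72 h, and at 72 h CD79A rose and CD3D fell. The part of these markers in the results was not tested. The poly-A control RNAs read 0.29, 0.60 and 0.47 log2 units higher at 12, 24 and 72 h than at 0 h. Scaled to them, the median of all probe sets was -0.28, -0.57 and -0.44, and 87.8%, 96.1% and 88.9% of all calls were falls, against 56.9%, 55.4% and 53.1% without it; between 12 and 24 h 95.4% were falls against 65.6%, and between 24 and 72 h 20.4% against 43.1%. Under that scaling 5, 6 and 6 of the 6 genes fell, with HMGCS1 and LSS added at 12 h and LSS at 24 and 72 h. Among all 42924 probe sets, 5930, 20796 and 13434 were called under that scaling, against 3812, 6707 and 7585 without it.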

How the data were processed

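The authors made the deposited values from Affymetrix canine arrays in Partek Genomics Suite with gcRMA (background correction, quantile normalisation and median polish), so each value is a log2 signal per probe set, and a shift shared by all transcripts is removed by the normalisation. Of 43035 probe sets, 111 controls were left out; 29254 of the rest had 1 gene symbol, 439 several and 13231 none, and 27680 symbols were updated through Entrez identifiers. Symbols alone were used, and no coordinates are given.

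Times were compared with limma 3.58.1 in R 4.3.3, with 1 coefficient per time over all 12 arrays and Benjamini-Hochberg adjustment over 42924 probe sets; thresholds of adjusted p under 0.001 and 1.5-fold follow the methods of the study. The precision is limited by 3 arrays per time (median residual SD 0.112). The fit was tested on simulated data. Levels of different probe sets were not compared. Named beside the 6 genes were 4 SREBP control genes, up to 4 genes per list with the largest called change, and the genes of most similar profile. Genes and lists were chosen with earlier results of these data known. Alternatives covered scaling, filters, probe set choice, thresholds, analysis of variance with Storey q-values, array weights, a replicate block and each array left out; a covariate from the residuals was added after seeing the data.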

Additional observations from a re-analysis of the deposited data

Results flagged for a closer look

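The difference from 0 h was tested between 2 times for each of the 6 genes, and it differed in FDPS and INSIG1. Between these times, 12 and 24 h, 3.10% of all genes fell and 1.41% rose. FDPS lay a further 0.77 log2 units lower at 24 h than at 12 h (log2 difference -0.768 ± 0.05, limma adjusted p = 6.95e-07). INSIG1 lay a further 0.62 lower (-0.617 ± 0.07, adjusted p = 8.06e-05) in its brightest probe set. Its other probe set differed by -0.37 (limma adjusted p = 0.0596) and did not pass. Over 25 alternatives the INSIG1 call was lost in 5 and the FDPS call in 1. Groups of 3 arrays are too small for a test of outlying arrays.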

How the results depend on the processing

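Over 25 alternatives (24 for LSS), all differences of the 6 genes from 0 h kept their direction. At 12 h 3 genes fell; 5 did with an adjusted p under 0.05 and no fold limit, 5 under poly-A scaling, 2 with the mean of all probe sets of a gene (INSIG1 lost) and 0 with a 2-fold limit. At 24 h the 2-fold limit left 2. Of all 42924 probe sets, 3812, 6707 and 7585 were called at 12, 24 and 72 h. With an adjusted p under 0.05 these were 12217, 16273 and 17234 (51.26%, 48.55% and 49.08% falls). With the 2-fold limit they were 1293, 3056 and 3532 (56.77%, 59.29% and 52.15% falls). Under poly-A scaling they were 5930, 20796 and 13434 (87.81%, 96.13% and 88.93% falls). Between 12 and 24 h the count of 2 became 1 with the mean of all probe sets of a gene, 1 with only the arrays of these times, 4 with an adjusted p under 0.05 and 0 with the 2-fold limit; between 24 and 72 h the adjusted p under 0.05 gave 2. Of all probe sets 1590 were called between 12 and 24 h, 7522 with an adjusted p under 0.05 and 647 with the 2-fold limit. Falls made up 65.6%, 51.3% and 81.1% of these calls. Between 24 and 72 h an adjusted p under 0.05 gave 7975 probe sets (46.0% falls), against 1577 (43.1%). Leaving out 1 array gave 3 to 4 genes at 12 h, 4 to 5 at 24 h, 5 to 6 at 72 h, and 1 to 2 between 12 and 24 h. The other pathway genes called (12, 18 and 21 at 12, 24 and 72 h) came to 28, 38 and 39 with an adjusted p under 0.05, 6, 10 and 12 with the 2-fold limit, and 19, 27 and 27 under poly-A scaling (2 rose and 17 fell at 12 h, 2 and 25 at 24 h, 3 and 24 at 72 h, against 3 and 9, 5 and 13, and 6 and 15 without that scaling); without 1 array they were 10 to 13, 17 to 19 and 19 to 22.

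Small steps turned their sign. FDPS between 24 and 72 h came to 0.046 under poly-A scaling. LSS between 24 and 72 h came to 0.082 under poly-A scaling, 0.095 with array weights, and 0.075, 0.007 and 0.048 without replicate 1 of 24 h, replicate 2 of 24 h and replicate 3 of 72 h; between 12 and 24 h it came to 0.013 without replicate 3 of 24 h. Leaving out 1 array gave a range of -0.230 to 0.075 for the first of these LSS steps and -0.292 to 0.013 for the second. The cause was not tested. With analysis of variance and Storey q-values HMGCS1, HSD17B7 and ELOVL6 at 24 h, ELOVL6 at 72 h and PGGT1B at 12 and 72 h were no longer called.

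The data did not show that the replicate numbers pair the arrays, and 3 arrays per time are too few to exclude it. Same-numbered arrays deviated together in 5 of 18 pairs only (r from -0.329 to 0.411), and an array correlated best with its own number in 12 of 36 cases. With the replicate block 3, 5 and 5 of the 6 genes fell, with 3728, 6627 and 7461 probe sets called in all at 12, 24 and 72 h, against 3812, 6707 and 7585 without it. Among the other pathway genes it removed the calls of PGGT1B at 12 h (adjusted p = 0.00177) and 72 h (0.00166) and of ELOVL6 at 72 h (0.00134). LSS had a mean log2 level of 5.09 and was removed by a filter on the dimmest 40% of probe sets. The standard error of its changes was the largest of the 6 (0.15), with 0.14 for the bright HMGCS1. Whether dimness set the precision was not tested.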

Other observations

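Probe sets of 1 gene disagreed in some genes of the wider pathway, here chosen after their values were seen. The brightest probe set of MVK, mevalonate kinase, did not pass at any time (log2 change 0.01 at 72 h), whereas another fell at all 3 times (-0.61, -0.87 and -0.90 at 12, 24 and 72 h, limma adjusted p = 5.57e-07 at 72 h). SCD, the stearoyl-CoA desaturase, read 12.98, 12.90 and 13.01 at 72 h, against 13.43, 13.43 and 13.40 at 0 h, in its brightest probe set, a difference of -0.45 that is under 1.5-fold. A dimmer probe set of SCD read 6.89, 7.07 and 6.94 at 72 h, against 8.88, 8.91 and 8.90 at 0 h, and fell by 1.93 on the log2 scale. FADS1, a desaturase of polyunsaturated fatty acids, differed by 0.49 at 72 h in its brightest probe set (under 1.5-fold), and rose in 2 others (1.45 and 0.90). No probe set of FADS1 was lower at 72 h than at 0 h.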
